A study of Mus musculus with 8 samples.

Results

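The 50 genes described here make or control the DNA replication machinery, from the proteins that mark replication origins to the E2F transcription factors. They were chosen by name from the 55665 genes of the count and TPM files, and all 50 were found and passed the filter on low counts, among 16642 genes tested. RNA-seq libraries came from mouse natural regulatory T (nTreg) cells, the CD4 T cells that restrain immune responses. All cells were RosaCas9/+ Foxp3gfp, which supplies Cas9 and a green reporter of Foxp3, were sorted as CD4+GFP+ from spleen and lymph nodes, and are labelled as cultured ex vivo. sgFoxp3 cells received a guide RNA against Foxp3, which encodes the lineage-defining factor of Treg cells, and sgNC cells received the control guide. Each was restimulated with anti-CD3 and anti-CD28 for 3 h, which engages the T cell receptor (TCR), or mock-treated with buffer (0 h). The 4 groups held 2 libraries each, sgFoxp3 at 3 h, sgFoxp3 at 0 h, sgNC at 3 h and sgNC at 0 h. The labels give neither the share of cells edited nor the order of sorting and culture, and no age or number of animals.

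Replication starts at origins bound by the origin recognition complex (ORC), onto which Cdc6 and Cdt1 load the ring-shaped MCM helicase. Kinases, Mcm10, Cdc45 and the GINS complex then activate the helicase, and polymerases, the sliding clamp Pcna and its loader copy the DNA. The E2F factors bind the promoters of many of these genes, with E2f1, E2f2 and E2f3 known mainly as activators and E2f7 and E2f8 as repressors. In T cells this set of genes is best known for its rise as resting cells enter the cell cycle.

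Library totals ran from 55865290 to 94807362 expected counts in sgFoxp3 cells and from 38729009 to 48626432 in sgNC cells. Foxp3, the targeted gene (GRCm38 chrX:7573644-7595245), had 76.1 and 71.8 CPM at 3 h and 87.6 and 88.5 CPM at 0 h in sgFoxp3 cells, against 679 and 673 CPM at 3 h and 764 and 776 CPM at 0 h in sgNC cells. CPM are counts relative to the library's total after scaling by edgeR's TMM method, and serve to compare libraries within a gene. All 4 sgFoxp3 libraries were thus far below all 4 sgNC libraries, with a log2 change of -3.13 at 0 h. Mitochondrial transcripts took 1.87% to 2.28% of the counts. The 6 markers of CD4 T and Treg cells were all detected, with Cd4 at 462 and 461 CPM in sgFoxp3 cells and 378 and 397 CPM in sgNC cells at 0 h. Cd4 was the only one of the 6 called higher in sgFoxp3 cells at 0 h, and 4 were called lower, namely Foxp3, Il2ra, Ikzf2 and Ctla4. Their sum was 3933 and 3955 CPM at 3 h and 1853 and 1888 CPM at 0 h in sgFoxp3 cells, against 7516 and 7313 CPM at 3 h and 3945 and 3963 CPM at 0 h in sgNC cells, and its part in the results below was not tested. Of the markers of other cells, the lists for B cells, CD8 T cells, NK cells, myeloid cells and stroma each summed to at most 9.43 CPM in any library, and Pax5, Ms4a1, Ncr1, Csf1r and Lyz2 were at or near 0. The NK list summed to 9.43 and 9.37 CPM at 3 h in sgNC cells, against 2.35 and 2.02 CPM at 0 h. At 3 h the myeloid list summed to 5.82 and 5.72 CPM in sgFoxp3 cells, against 2.975 and 2.974 CPM in sgNC cells. The part of these lists in the results below was not tested. The 4 erythroid markers summed to 75.2 to 82.9 CPM in sgFoxp3 libraries, against 7.84 to 10.7 CPM in sgNC libraries. That difference lay in Hba-a1 and Hba-a2, which were 2 of the 4, while Hbb-bs and Hbb-bt stayed under 1 CPM in every library, and its part in the results below was not tested. Replicate libraries differed little in the 50 genes, with a median coefficient of variation of 2.33% and a highest of 19.2%. Of the 50 genes, 26 overlap another annotated gene, 12 on the same strand and 21 on the opposite one, and the deposited tables are marked as stranded without the setting used in counting, so reads in those overlaps are uncertain. Pcna also has 2 named pseudogene copies in the files.

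Promoter windows from RefSeq (build GRCm38.p6) were at hand for 41 of the 50 genes. Letters of the E2F site (TTTCCCGC, TTTGGCGC, TTTCGCGC or TTTGCCGC, read on both strands and allowed to overlap each other) stood within the 250 bases before the start of 10 of the 41, or 24.4%, against 583 of 27025 genes of the table, or 2.2%. Among the protein-coding genes of the table the share was 2.72%. Most of the members' windows overlap the gene as annotated by GENCODE. Those of Cdc6, E2f1, Mcm7 and Timeless lie inside it, as do some of those of E2f2, E2f3, Lig1 and Pold2. The starts used here are thus not always the first base of the gene, while the windows printed below all lie outside it. The windows below are those of Mcm5 and Mcm6, the helicase subunits with the largest and the smallest guide effect at 0 h, of Pola1, the catalytic subunit of the polymerase that starts each strand, and of the repressors E2f7 and E2f8. Each reads 5′ to 3′ along the gene's own strand, ends at the base before the start, and carries the E2F letters in capitals. Mcm5 is chr8:75109259-75109508 on the plus strand, Mcm6 chr1:128359706-128359955 on the minus strand, Pola1 chrX:93632156-93632405 on the minus strand, E2f7 chr10:110745189-110745438 on the plus strand and E2f8 chr7:48881597-48881846 on the minus strand.
Mcm5: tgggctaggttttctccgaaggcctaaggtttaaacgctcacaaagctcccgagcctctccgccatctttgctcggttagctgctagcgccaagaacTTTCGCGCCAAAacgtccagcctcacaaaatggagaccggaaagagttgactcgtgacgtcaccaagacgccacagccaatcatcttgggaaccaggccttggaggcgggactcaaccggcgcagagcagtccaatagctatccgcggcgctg
Mcm6: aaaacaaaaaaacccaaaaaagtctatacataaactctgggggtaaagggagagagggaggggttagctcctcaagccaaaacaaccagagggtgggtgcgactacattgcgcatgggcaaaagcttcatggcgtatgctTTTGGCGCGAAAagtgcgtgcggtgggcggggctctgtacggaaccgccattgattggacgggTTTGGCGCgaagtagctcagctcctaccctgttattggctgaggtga
Pola1: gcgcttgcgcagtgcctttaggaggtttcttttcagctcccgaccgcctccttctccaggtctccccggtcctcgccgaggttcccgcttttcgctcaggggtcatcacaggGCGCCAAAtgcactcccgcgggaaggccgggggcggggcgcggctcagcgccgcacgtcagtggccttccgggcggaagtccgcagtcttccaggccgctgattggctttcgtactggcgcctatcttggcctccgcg
E2f7: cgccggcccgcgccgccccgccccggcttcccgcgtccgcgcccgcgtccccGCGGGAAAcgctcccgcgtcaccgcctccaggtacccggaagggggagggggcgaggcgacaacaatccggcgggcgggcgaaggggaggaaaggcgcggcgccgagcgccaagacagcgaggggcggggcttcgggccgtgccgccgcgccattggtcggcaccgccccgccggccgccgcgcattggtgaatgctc
E2f8: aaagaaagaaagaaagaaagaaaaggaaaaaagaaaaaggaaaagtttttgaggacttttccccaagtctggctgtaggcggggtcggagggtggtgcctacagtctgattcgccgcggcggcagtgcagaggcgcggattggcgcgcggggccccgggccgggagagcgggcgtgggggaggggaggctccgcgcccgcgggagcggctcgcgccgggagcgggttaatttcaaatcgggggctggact
In Mcm5 and in Mcm6 a match on one strand overlapped a match on the other, which makes a single longer run of capitals, and Mcm6 held a further match nearer the start. E2f8, the member with the largest guide effect at both times, held none, which says only that these letters are not in this window. The other genes with a match were Cdc6, E2f3, Gins3, Mcm7, Orc1 and Rfc3. The pentamer CCAAT, bound by the factor NF-Y, was found on either strand in 63.4% of the 41 members, against 37.5% of all genes of the table. Another element, with the letters TTTGAA and known as CHR from cell cycle promoters, was found in 22% of the 41 members, against 18.3% of all genes of the table. In all these shares a gene counted once if any of its starts had a match, and 7 members had several starts. These shares are descriptions of the windows and were not tested, and a match is not a bound site.

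At 0 h all 50 genes were higher in sgFoxp3 cells than in sgNC cells, and none was lower. The median log2 change was 1.43, with a range from 0.28 for Mcm6 to 2.38 for E2f8, and 41 of the 50 differed at least 2-fold. At 3 h the guides still differed: 49 were higher, none was lower, and Rfc1 did not pass the test, with a median of 1.24 and 31 at least 2-fold higher. Calls were made with edgeR's quasi-likelihood test at a Benjamini-Hochberg adjusted p below 0.05 over all genes tested. By that rule 34.2% of all genes tested were called higher at 0 h and 29.1% lower, and 30.7% higher and 30.8% lower at 3 h, with medians over all genes of 0.02 and -0.01. No member was lower at an unadjusted p below 0.05 either, and DESeq2 gave the same counts of members. On log2(TPM + 1), tested with limma and without TMM scaling, the members called higher were 49 at 0 h and 48 at 3 h, at medians of 1.10 and 0.96, while over all genes the share of calls that were higher came to 27.9% and 27.4%, in place of 54% and 49.9%, and the medians to -0.15 and -0.12. As a share of all expected counts the 50 genes took 0.192% and 0.192% at 3 h and 0.481% and 0.478% at 0 h in sgFoxp3 libraries, against 0.103% and 0.104% at 3 h and 0.223% and 0.226% at 0 h in sgNC libraries. Whether the 2 libraries of a group came from separate animals or cultures is not given, so the p-values measure a spread between libraries that may be technical. In bulk RNA, more cells in a phase of the cell cycle and more RNA per cell cannot be told apart.

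**Figure D1:**
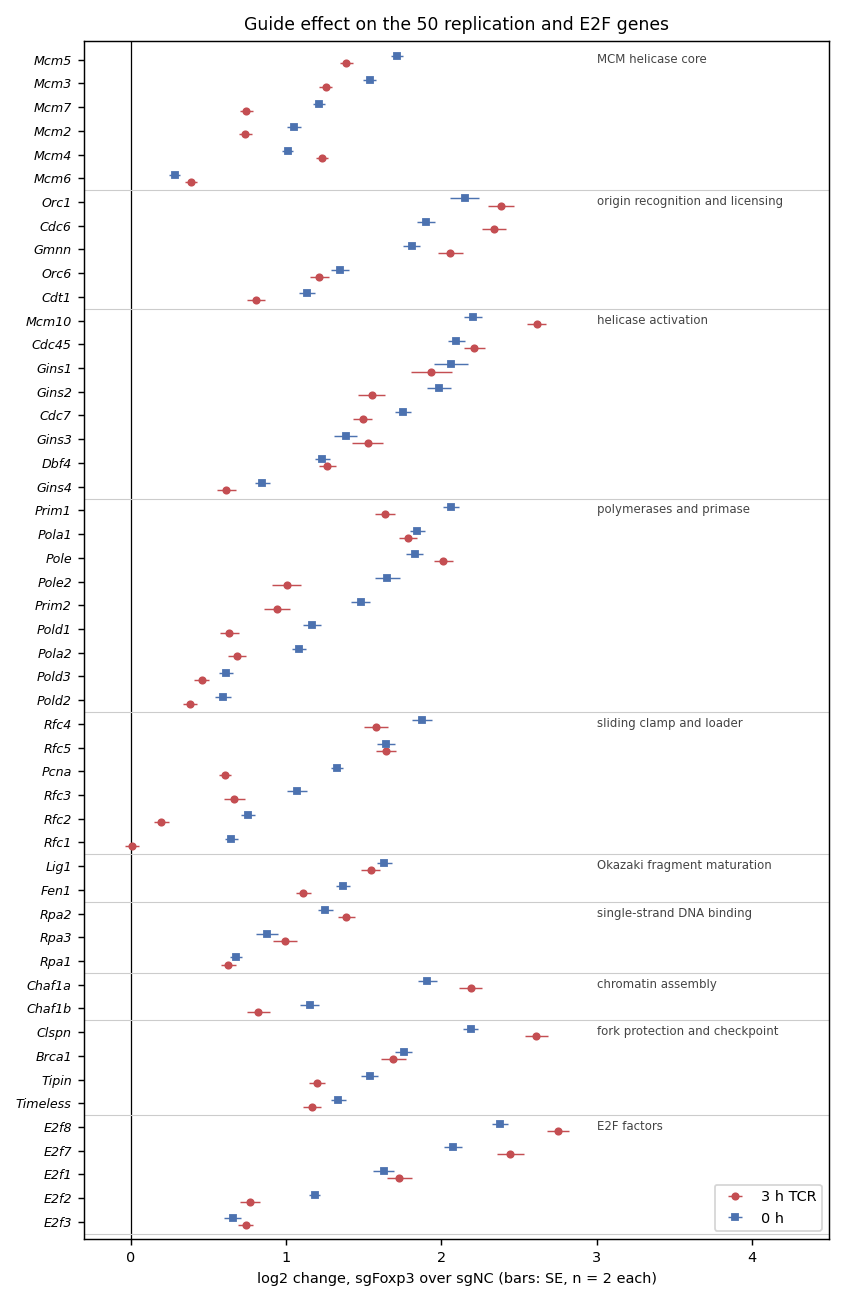
The log2 change of sgFoxp3 over sgNC cells is plotted for each of the 50 genes at 3 h (circles) and at 0 h (squares), with bars for the SE and n = 2 libraries a group. All squares lie right of 0, and the circles run from 0.01 for Rfc1 to 2.75 for E2f8.

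The 6 subunits of the MCM helicase, the ring that unwinds DNA at the fork, were all higher in sgFoxp3 cells at both times, with a median log2 change of 1.13 at 0 h and 0.99 at 3 h. Mcm5 had 144 and 148 CPM at 3 h and 207 and 197 CPM at 0 h in sgFoxp3 cells, against 56.4 and 55.2 CPM at 3 h and 62.4 and 60.9 CPM at 0 h in sgNC cells. At each time both sgFoxp3 libraries lay above both sgNC libraries, and the sgFoxp3 libraries at 3 h lay above every sgNC library. Its log2 change between guides was 1.71 (SE 0.04) at 0 h, with an adjusted p of 1.98e-21, and 1.39 (SE 0.04) at 3 h. Mcm6, another subunit of the same ring, had 161 and 159 CPM at 3 h and 287 and 285 CPM at 0 h in sgFoxp3 cells, against 125 and 119.9 CPM at 3 h and 231 and 239.7 CPM at 0 h in sgNC cells. Its guides did not overlap at either time, but they lay closer together. The log2 change of Mcm6 was 0.28 (SE 0.04) at 0 h, with an adjusted p of 4.63e-07, and on the deposited TPM values, log2(TPM + 1), it was 0.03 with a limma adjusted p of 0.641. Mcm2, Mcm3, Mcm4 and Mcm7 lay between these, from 1.01 for Mcm4 to 1.54 for Mcm3 at 0 h.

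Within the ring the subunits were at unequal levels, and less so in sgFoxp3 cells. TPM values, which are corrected for gene length and scaled to the same total in each library, compare genes with each other. The ratio of the highest to the lowest subunit in TPM was 2.13 and 2.43 at 3 h and 3.15 and 3.17 at 0 h in sgFoxp3 cells, against 3.17 and 3.05 at 3 h and 5.58 and 5.18 at 0 h in sgNC cells. Mcm6 stood alone at the top in sgNC cells at 0 h, with 154 and 162 TPM, where Mcm7 came next with 91.4 and 90.2 TPM and Mcm2 was last with 27.6 and 31.3 TPM. In sgFoxp3 cells at 0 h, Mcm6 had 161 and 161 TPM and Mcm7 had 156 and 149.9 TPM. In sgFoxp3 cells at 3 h, the means of Mcm3, Mcm5 and Mcm6 were 77.6 ± 3.64 TPM, 75.7 ± 0.46 TPM and 71.8 ± 3.49 TPM (SD, n = 2), and the order of Mcm3 and Mcm5 did not hold in both libraries.

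**Figure D2:**
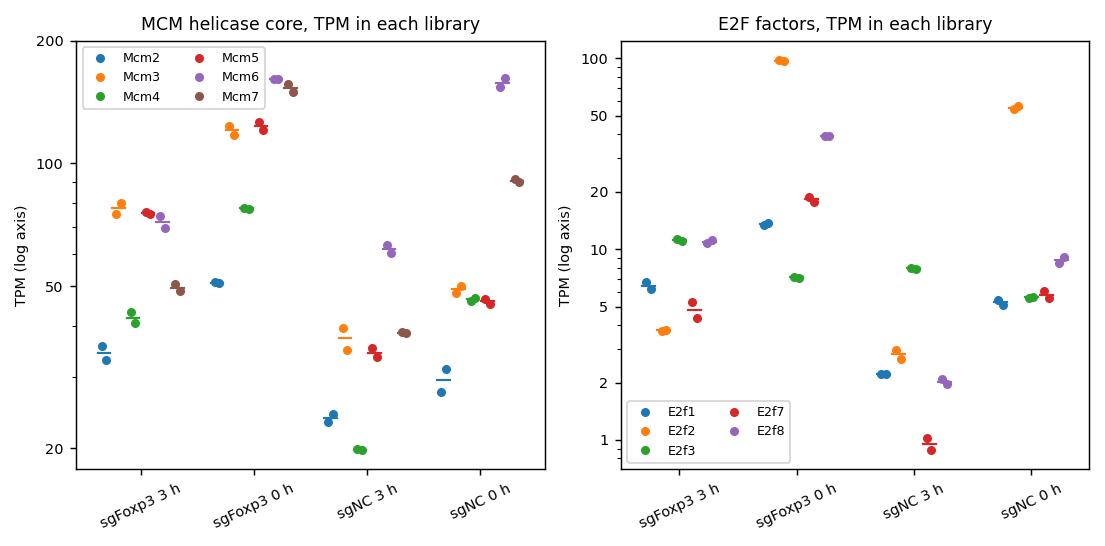
TPM in each library (points) and the group mean (short lines), on a log axis, for the 6 MCM subunits (left) and the 5 E2F factors (right), with groups in the order sgFoxp3 3 h, sgFoxp3 0 h, sgNC 3 h and sgNC 0 h. Mcm6 has 154 and 162 TPM in sgNC cells at 0 h, far above the other subunits there, and E2f2 drops at 3 h with both guides.

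The 5 genes of origin recognition and licensing were all higher in sgFoxp3 cells at both times, with medians of 1.81 at 0 h and 2.06 at 3 h. Orc1, the ORC subunit that recruits the loading factors, had 19.7 and 20.3 CPM at 3 h and 10.1 and 10.3 CPM at 0 h in sgFoxp3 cells, against 4.0 and 3.66 CPM at 3 h and 2.28 and 2.3 CPM at 0 h in sgNC cells. The sgFoxp3 libraries were high at both times and highest at 3 h, with no overlap between any of the 4 groups. The log2 change between guides was 2.15 (SE 0.09) at 0 h and 2.38 (SE 0.08) at 3 h, with adjusted p-values of 5.87e-16 and 5.68e-18. Cdt1, which brings the MCM ring to origins, had 33.7 and 32.7 CPM at 3 h and 75.1 and 69.9 CPM at 0 h in sgFoxp3 cells, against 18.2 and 19.7 CPM at 3 h and 33.7 and 32.4 CPM at 0 h in sgNC cells. At each time the sgFoxp3 libraries were the higher pair, but those at 3 h lay level with the sgNC libraries at 0 h. Its log2 change was 1.13 (SE 0.05) at 0 h, the smallest of the group. Gmnn, which encodes geminin, the inhibitor of Cdt1, had larger log2 changes than Cdt1, 1.81 at 0 h and 2.06 at 3 h. The loader Cdc6 and the ORC subunit Orc6 were higher by 1.9 and 1.35 at 0 h.

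All 8 genes that turn the loaded ring into an active helicase were higher in sgFoxp3 cells, with medians of 1.87 at 0 h and 1.54 at 3 h. Mcm10, needed for the activated helicase to leave the origin, had 43.7 and 43 CPM at 3 h and 50.1 and 46.3 CPM at 0 h in sgFoxp3 cells, against 7.28 and 6.87 CPM at 3 h and 10.3 and 10.6 CPM at 0 h in sgNC cells. All 4 sgFoxp3 libraries lay far above all 4 sgNC libraries. The log2 change was 2.2 (SE 0.06) at 0 h and 2.61 (SE 0.06) at 3 h, with an adjusted p of 2.35e-20 at 0 h. Gins4, 1 of the 4 GINS subunits, had 18.6 and 19.8 CPM at 3 h and 42.1 and 41.9 CPM at 0 h in sgFoxp3 cells, against 12.3 and 12.9 CPM at 3 h and 23.7 and 23.1 CPM at 0 h in sgNC cells. Its groups were apart at each time, while the sgFoxp3 libraries at 3 h lay below the sgNC libraries at 0 h. At 0 h the log2 change of Gins4 was 0.85 (SE 0.05), against 2.06, 1.98 and 1.38 for its partners Gins1, Gins2 and Gins3. Cdc45, which joins GINS and the ring, was higher by 2.09. The kinase Cdc7 and its activating subunit Dbf4 were higher by 1.75 and 1.23.

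The 9 genes of the polymerases and the primase were higher at both times, with medians of 1.48 at 0 h and 0.94 at 3 h. Prim1, the catalytic subunit of the primase that lays down RNA primers, had 21.2 and 21.1 CPM at 3 h and 69.2 and 68.1 CPM at 0 h in sgFoxp3 cells, against 6.57 and 7.03 CPM at 3 h and 16.3 and 16.6 CPM at 0 h in sgNC cells. The sgFoxp3 libraries at 0 h stood alone at the top, and the sgNC libraries at 3 h at the bottom. Its log2 change was 2.06 (SE 0.05) at 0 h, with an adjusted p of 5.32e-21. Pold2, an accessory subunit of polymerase delta, had 64.1 and 66.8 CPM at 3 h and 34.3 and 34.1 CPM at 0 h in sgFoxp3 cells, against 49.1 and 51.7 CPM at 3 h and 22.4 and 22.9 CPM at 0 h in sgNC cells. Here the 3 h libraries were the high ones with both guides, and at each time the sgFoxp3 pair was above the sgNC pair. Its log2 change between guides was 0.59 (SE 0.05) at 0 h and 0.38 (SE 0.05) at 3 h. The catalytic subunits Pola1, Pole and Pold1 were higher at 0 h by 1.84, 1.83 and 1.17. Pole2 and Prim2, partners of Pole and Prim1, were higher by 1.65 and 1.48 at 0 h, and by 1.0 and 0.94 at 3 h.

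The sliding clamp Pcna and the 5 subunits of its loader, replication factor C, were all higher at 0 h, and 5 of these 6 at 3 h. Rfc4, a small subunit of the loader, had 16.4 and 17.7 CPM at 3 h and 32.6 and 33.8 CPM at 0 h in sgFoxp3 cells, against 5.33 and 6.16 CPM at 3 h and 9.05 and 9.07 CPM at 0 h in sgNC cells. All 4 sgFoxp3 libraries lay above all 4 sgNC libraries. The log2 change was 1.87 (SE 0.06) at 0 h and 1.58 (SE 0.08) at 3 h. Rfc1, the large subunit, had 40.1 and 38.9 CPM at 3 h and 107 and 107 CPM at 0 h in sgFoxp3 cells, against 39.2 and 39.4 CPM at 3 h and 66.8 and 70.0 CPM at 0 h in sgNC cells. The guides were apart at 0 h and overlapped at 3 h, where both pairs were low. Its log2 change was 0.65 (SE 0.04) at 0 h, with an adjusted p of 9.23e-13, and 0.01 (SE 0.05) at 3 h, with an adjusted p of 0.905. Rfc2, another small subunit, had 27.4 and 27.9 CPM at 3 h and 70.7 and 70.2 CPM at 0 h in sgFoxp3 cells, against 23.7 and 24.6 CPM at 3 h and 41.9 and 41.7 CPM at 0 h in sgNC cells. Its pairs did not overlap at either time but were close at 3 h. There the log2 change was 0.20 (SE 0.05), and on log2(TPM + 1) it turned to -0.02. Pcna, at 264 and 264 TPM at 3 h and 361 and 373 TPM at 0 h in sgFoxp3 cells, against 203 and 199.7 TPM at 3 h and 177 and 179 TPM at 0 h in sgNC cells, was the member with the highest mean TPM in 3 of the 4 groups. Rpa1 was above it in sgNC cells at 0 h.

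The genes that finish and wrap the new strands were also higher. Fen1, the nuclease that trims Okazaki fragments, and Lig1, the ligase that joins them, rose by 1.37 (SE 0.05) and 1.63 (SE 0.05) on the log2 scale at 0 h. Lig1 had 32.7 and 31.4 CPM at 3 h and 125 and 122 CPM at 0 h in sgFoxp3 cells, against 10.2 and 11.8 CPM at 3 h and 39.5 and 39.9 CPM at 0 h in sgNC cells. Its sgFoxp3 libraries at 3 h lay below its sgNC libraries at 0 h, although the guides were apart at each time. Fen1 had 64.7 and 68.2 CPM at 3 h and 82.7 and 80.9 CPM at 0 h in sgFoxp3 cells, against 31.8 and 29.9 CPM at 3 h and 31.5 and 31.9 CPM at 0 h in sgNC cells. For Fen1 all 4 sgFoxp3 libraries were above all 4 sgNC libraries. Chaf1a and Chaf1b encode subunits of CAF-1, which places histones on new DNA. Chaf1a had 37 and 38.3 CPM at 3 h and 72.8 and 72 CPM at 0 h in sgFoxp3 cells, against 7.28 and 9.3 CPM at 3 h and 18.8 and 19.7 CPM at 0 h in sgNC cells, and Chaf1b had 10.6 and 11.1 CPM at 3 h and 27.3 and 26.7 CPM at 0 h in sgFoxp3 cells, against 6.33 and 6.0 CPM at 3 h and 11.9 and 12.4 CPM at 0 h in sgNC cells. Both were higher in sgFoxp3 cells at each time, Chaf1a by 1.91 and Chaf1b by 1.15 at 0 h, with adjusted p-values of 1.80e-17 and 2.42e-14.

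The 3 subunits of RPA, which coats single-stranded DNA, were higher in sgFoxp3 cells by 0.67 for Rpa1, 1.25 for Rpa2 and 0.88 for Rpa3 at 0 h. Rpa1, the large subunit (GRCm38 chr11:75298166-75348324), had 54.8 and 55.1 CPM at 3 h and 409 and 411 CPM at 0 h in sgFoxp3 cells, against 36.2 and 34.9 CPM at 3 h and 248 and 265 CPM at 0 h in sgNC cells. Both 0 h pairs were high and both 3 h pairs low, so that the time parted the libraries further than the guide did. Rpa2 had 37.5 and 37.2 CPM at 3 h and 59.5 and 59.1 CPM at 0 h in sgFoxp3 cells, against 14 and 14.6 CPM at 3 h and 25.4 and 24.3 CPM at 0 h in sgNC cells. In TPM, Rpa1 was 4.67 and 4.58 times the lowest subunit in sgFoxp3 cells at 0 h, and 5.66 and 6.95 times in sgNC cells at 0 h. At 3 h the highest and lowest of the 3 subunits were within a ratio of 1.09 and 1.16 in sgFoxp3 cells and 1.61 and 1.5 in sgNC cells.

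The 4 genes of fork protection and the checkpoint were higher at both times. Clspn encodes claspin, the adaptor through which a stalled fork activates the kinase Chk1, and had 20.8 and 19.9 CPM at 3 h and 123 and 127 CPM at 0 h in sgFoxp3 cells, against 3.35 and 3.28 CPM at 3 h and 26.7 and 28.1 CPM at 0 h in sgNC cells. The sgFoxp3 libraries at 0 h were far above all others, and the sgFoxp3 libraries at 3 h were below the sgNC libraries at 0 h. The log2 change between guides was 2.19 (SE 0.05) at 0 h and 2.61 (SE 0.08) at 3 h, with an adjusted p of 6.67e-22 at 0 h. Timeless, which with Tipin steadies the fork, had 29 and 29.7 CPM at 3 h and 76.1 and 71.2 CPM at 0 h in sgFoxp3 cells, against 13.3 and 12.9 CPM at 3 h and 29.5 and 28.9 CPM at 0 h in sgNC cells. At each time the pairs were apart, with the sgFoxp3 libraries at 3 h level with the sgNC libraries at 0 h. Timeless was higher by 1.34 (SE 0.05), Tipin by 1.54 and Brca1, which protects and repairs forks, by 1.76 at 0 h.

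Among the E2F factors, the repressors had larger log2 changes between guides than the activators at both times. E2f8 (GRCm38 chr7:48866429-48881596) had 28.5 and 30.6 CPM at 3 h and 85.3 and 85.8 CPM at 0 h in sgFoxp3 cells, against 4.57 and 4.2 CPM at 3 h and 16.1 and 16.8 CPM at 0 h in sgNC cells. E2f7 had 16.9 and 15.2 CPM at 3 h and 52.3 and 53.6 CPM at 0 h in sgFoxp3 cells, against 2.84 and 3.02 CPM at 3 h and 12.2 and 13 CPM at 0 h in sgNC cells. Both repressors were high in sgFoxp3 cells at 0 h, low in sgNC cells at 3 h, and apart between guides at each time. Their log2 changes were 2.38 (SE 0.05) and 2.07 (SE 0.06) at 0 h, and 2.75 (SE 0.07) and 2.44 (SE 0.09) at 3 h, with adjusted p-values at 0 h of 1.00e-21 and 9.36e-20.

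E2f1, the best studied activator, had 14.1 and 13.4 CPM at 3 h and 23.3 and 23.7 CPM at 0 h in sgFoxp3 cells, against 4.11 and 4.18 CPM at 3 h and 7.86 and 7.34 CPM at 0 h in sgNC cells. All 4 sgFoxp3 libraries were above all 4 sgNC libraries, with a log2 change of 1.63 (SE 0.07) at 0 h and 1.73 (SE 0.08) at 3 h. E2f2 had 14 and 14.7 CPM at 3 h and 284 and 280.0 CPM at 0 h in sgFoxp3 cells, against 8.72 and 8.24 CPM at 3 h and 122 and 126 CPM at 0 h in sgNC cells. The 0 h libraries were high and the 3 h libraries low with both guides, and the log2 change between guides was 1.18 (SE 0.04) at 0 h and 0.77 (SE 0.06) at 3 h. E2f3 had 43.2 and 43 CPM at 3 h and 22.7 and 22 CPM at 0 h in sgFoxp3 cells, against 25.7 and 25.9 CPM at 3 h and 14.1 and 14.3 CPM at 0 h in sgNC cells. Its 3 h libraries were the higher ones with both guides, and the log2 change between guides was 0.66 (SE 0.05) at 0 h and 0.74 (SE 0.05) at 3 h. Summed in TPM, E2f7 and E2f8 stood to E2f1, E2f2 and E2f3 as 0.733 and 0.742 to 1 at 3 h and 0.491 and 0.488 to 1 at 0 h in sgFoxp3 cells, against 0.236 and 0.223 at 3 h and 0.222 and 0.218 at 0 h in sgNC cells. The ratio was thus higher in sgFoxp3 than in sgNC libraries at both times, and E2f2 made up most of the activators' sum at 0 h.

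**Figure D3:**
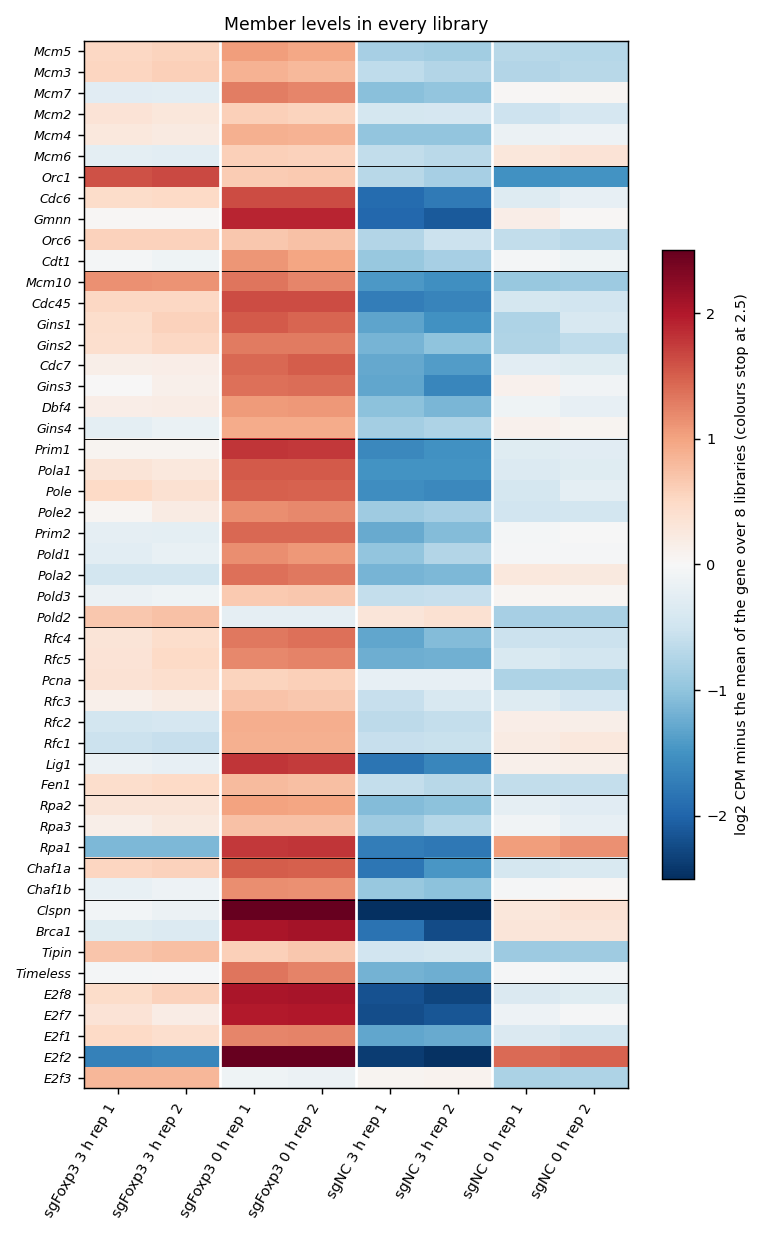
Each row is a gene, grouped by role and set apart by black lines, and each column a library, with sgFoxp3 3 h, sgFoxp3 0 h, sgNC 3 h and sgNC 0 h from left to right. Colour gives log2 CPM minus the gene's mean over the 8 libraries, and sgFoxp3 cells at 0 h are the reddest pair for most genes, while Orc1, Pold2, Tipin and E2f3 are highest in sgFoxp3 cells at 3 h.

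Across the 50 genes the median level was 18.4 TPM at 3 h and 52.1 TPM at 0 h in sgFoxp3 cells, against 8.24 TPM at 3 h and 23.1 TPM at 0 h in sgNC cells. In sgFoxp3 cells 14 genes at 3 h and 2 at 0 h were under 10 TPM, against 27 at 3 h and 14 at 0 h in sgNC cells. The lowest means were 3.77 ± 0.0354 TPM for E2f2 at 3 h and 6.56 ± 0.509 TPM for Orc1 at 0 h in sgFoxp3 cells, against 0.955 ± 0.0919 TPM for E2f7 at 3 h and 1.69 ± 0.113 TPM for Orc1 at 0 h in sgNC cells (SD, n = 2). The fewest reads behind any value were 59 counts, for Gins1 in a sgNC library at 3 h, so all members were measured above the counting floor.

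After 3 h of TCR stimulation most of the 50 genes were lower than at 0 h with either guide. In sgFoxp3 cells 46 were lower and 3 higher, with a median log2 change of -1.05 and 26 at least 2-fold lower. In sgNC cells 40 were lower, 5 were higher and 5 did not pass the test, with a median of -0.86 and 20 at least 2-fold lower. Over all genes tested, 44.5% were called lower and 40.8% higher in sgFoxp3 cells, and 40.9% lower and 40.9% higher in sgNC cells, with medians of -0.07 and -0.01. The members called lower on log2(TPM + 1) were 46 and 45, and in sgNC cells 37.3% of all calls were higher, in place of 50%. E2f2 had the largest fall with both guides, with log2 changes of -4.29 (SE 0.05) in sgFoxp3 cells and -3.87 (SE 0.05) in sgNC cells, with adjusted p-values of 2.99e-29 and 5.38e-27. Rpa1 and Clspn came next, with log2 changes of -2.9 and -2.62 in sgFoxp3 cells and -2.85 and -3.05 in sgNC cells. Brca1 (-2.38 and -2.32), Lig1 (-1.94 and -1.85) and Gmnn (-1.87 and -2.12) also fell by more than most.

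The genes that rose at 3 h with both guides were Orc1, Pold2 and E2f3. Orc1 rose by 0.97 (SE 0.07) in sgFoxp3 cells and 0.74 (SE 0.12) in sgNC cells, Pold2 by 0.94 (SE 0.05) and 1.15 (SE 0.05), and E2f3 by 0.95 (SE 0.05) and 0.86 (SE 0.06). Each of them had both 3 h libraries above both 0 h libraries with each guide. Each also differed in this from its nearest partners: Orc6 did not rise with either guide, Pold1 fell by 1.36 in sgFoxp3 cells and 0.82 in sgNC cells, and E2f1 and E2f2 fell. Pcna and Tipin rose in sgNC cells, by 0.55 (SE 0.04) and 0.44 (SE 0.06). In sgFoxp3 cells Pcna fell, with a log2 change of -0.18 (SE 0.04), and Tipin did not pass the test, with 0.10 and an adjusted p of 0.0574. The call on Tipin in sgFoxp3 cells was gained, at an adjusted p of 0.0448, without the second sgNC library at 3 h and, at 0.0492, without the first sgFoxp3 library at 3 h. The 5 genes that did not pass the test in sgNC cells were Mcm2, Mcm3, Orc6, Rfc3 and Fen1, with log2 changes from -0.11 to 0.04. All 5 of these were called lower on log2(TPM + 1).

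By role, the polymerases and the primase fell at a median of -1.23 in sgFoxp3 cells and -1.14 in sgNC cells, with Pold2 as the exception. The MCM ring fell less, at medians of -0.55 and -0.50. Mcm7 fell furthest of the ring, by 1.52 in sgFoxp3 cells and 1.05 in sgNC cells, while Mcm2 and Mcm3 had log2 changes of -0.27 and -0.27 in sgFoxp3 cells. Helicase activation genes had medians of -1.04 and -0.91. The fall of Mcm10 in sgFoxp3 cells, the smallest among them there, -0.15 (SE 0.05), was no longer called without the first sgFoxp3 library at 0 h (adjusted p of 0.0915) or the second at 3 h (0.131). Orc6, at -0.13 in sgFoxp3 cells, lost its call without either sgFoxp3 library at 3 h, at adjusted p-values of 0.103 and 0.191, and without the second at 0 h, at 0.112. E2f7 and E2f8 fell by 1.73 and 1.53 in sgFoxp3 cells, and by 2.1 and 1.91 in sgNC cells.

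The difference in TCR effect between the guides was tested as an interaction, where a positive value means that the 3 h change was more positive in sgFoxp3 cells. It was called for 30 of the 50 genes, 23 lower and 7 higher, with a median of -0.14 and no gene at 2-fold. Over all genes tested, 27% were called lower and 17.8% higher, with a median of -0.09. With RLE or upper-quartile scaling the members' counts were 19 lower and 11 higher. On log2(TPM + 1) they came to 14 lower and 2 higher, and 51.5% of all calls were higher in place of 39.7%. The genes called lower included 6 of the 9 polymerase and primase genes, 5 of the 6 clamp and loader genes and 4 of the 6 MCM genes. No polymerase, primase, clamp or loader gene was called higher. The 7 called higher were Cdc6, Clspn, Mcm10, E2f8, E2f7, Chaf1a and Mcm4.

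**Figure D4:**
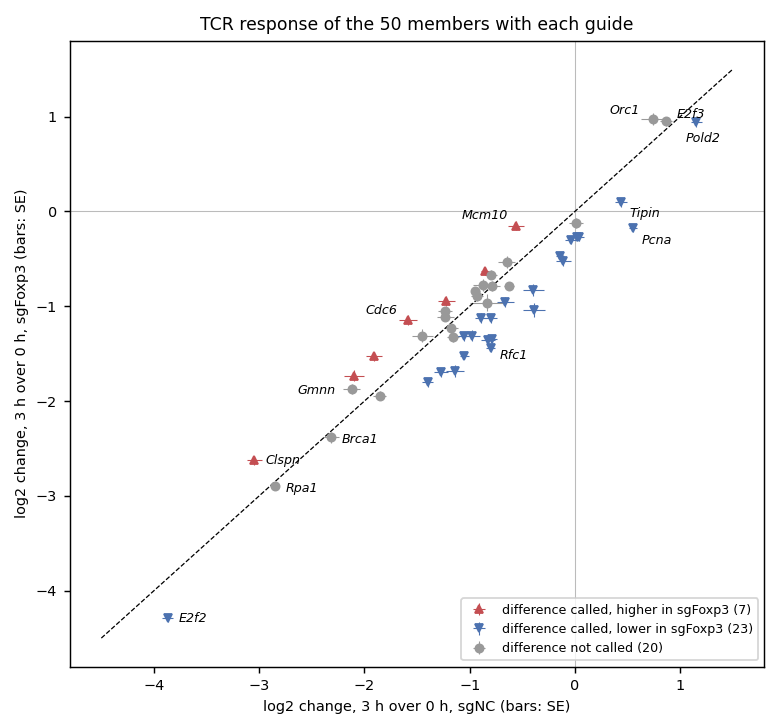
The log2 change of 3 h over 0 h in sgFoxp3 cells (vertical axis) is plotted against that in sgNC cells (horizontal axis) for each of the 50 genes, with bars for the SE, and the dashed line marks equal change. Both axes use their own 0 h libraries, and most genes lie below 0 on both, with 23 called below the line (downward triangles), 7 above it (upward triangles) and 20 not called (circles).

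Pcna had the largest difference, -0.72 (SE 0.05), with an adjusted p of 5.83e-11. It had 276 and 286 CPM at 3 h and 313 and 323 CPM at 0 h in sgFoxp3 cells, against 185 and 185 CPM at 3 h and 126 and 127 CPM at 0 h in sgNC cells. In sgNC cells both 3 h libraries were above both 0 h libraries, and in sgFoxp3 cells they were below, so the 2 time effects ran opposite ways while the guides stayed apart at each time. Pole2, an accessory subunit of polymerase epsilon, had 7.57 and 8.43 CPM at 3 h and 16.4 and 16.7 CPM at 0 h in sgFoxp3 cells, against 3.93 and 4.11 CPM at 3 h and 5.23 and 5.3 CPM at 0 h in sgNC cells. It fell with both guides and further in sgFoxp3 cells, with a difference of -0.65 (SE 0.13) and an adjusted p of 1.57e-04. Rfc1 and Rfc2, whose values are given above, had differences of -0.64 (SE 0.06) and -0.56 (SE 0.07).

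Prim2, the large subunit of the primase, had 9.04 and 8.85 CPM at 3 h and 28.6 and 28.6 CPM at 0 h in sgFoxp3 cells, against 4.4 and 4.93 CPM at 3 h and 10.1 and 10.4 CPM at 0 h in sgNC cells. Its 0 h pairs were far apart and its 3 h pairs closer, with a difference of -0.54 (SE 0.11) and an adjusted p of 1.97e-04. In the other direction, Cdc6 had 19 and 19.5 CPM at 3 h and 42.7 and 42.6 CPM at 0 h in sgFoxp3 cells, against 3.62 and 4.01 CPM at 3 h and 10.9 and 11.9 CPM at 0 h in sgNC cells. It fell with both guides and less in sgFoxp3 cells, with a difference of 0.44 (SE 0.10) and an adjusted p of 9.26e-04. Clspn and Mcm10 had differences of 0.42 (SE 0.10) and 0.41 (SE 0.09). Cdc6, Clspn, Mcm10 and E2f7 lost their calls on log2(TPM + 1), and E2f8 and Chaf1a changed sign, at -0.06 and -0.04. Of the 30 calls, those of Gins4, Chaf1a, Cdc7, E2f7, Rfc4 and Pold2 were lost when 1 library or another was left out. Without the first sgNC library at 3 h, for example, Chaf1a had a difference of 0.10 and an adjusted p of 0.406, and E2f7 one of 0.32 and 0.0692. Gins4 had an adjusted p of 0.0759 without the second sgNC library at 3 h, and Rfc4 one of 0.212. Pold2 had an adjusted p of 0.0693, and Cdc7 one of 0.087, without the second sgFoxp3 library at 3 h.

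Other lists of cell cycle genes were higher in sgFoxp3 cells to different degrees. Over all genes tested, 34.2% were called higher and 29.1% lower at 0 h, and 30.7% higher and 30.8% lower at 3 h. Of 32 further replication and repair genes, 26 were called higher in sgFoxp3 cells at 0 h and 2 lower, with a median of 1.01. Asf1b, a histone chaperone, had the largest log2 change at 0 h, 2.34, while Orc4 and Chtf8 were lower at -0.24 and -0.16. At 3 h, 24 of the 32 were higher and 5 lower, with a median of 0.63. Of 18 regulators from the RB, E2F and DREAM families, 15 were higher and 1, E2f5, was lower (-0.62), with a median of 0.71 at 0 h. At 3 h 13 were higher and 3 lower, with a median of 0.33. Foxm1, an activator of mitotic genes, and Ccne2, a cyclin of S phase entry, had log2 changes of 2.09 and 1.92 at 0 h.

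Mitotic and G2/M genes were higher throughout, 30 of 30 at both times, with medians of 2.37 at 0 h and 2.51 at 3 h. All 30 fell at 3 h of TCR with both guides, at medians of -2.38 in sgFoxp3 cells and -2.47 in sgNC cells. The cyclins Ccnb1 and Ccna2 had the largest log2 changes of them at 0 h, 2.55 and 2.53. Nucleotide synthesis genes went the other way with TCR: 13 of 20 rose in sgFoxp3 cells and 15 of 20 in sgNC cells, at medians of 1.42 and 1.6. Of all genes tested, 40.8% and 40.9% were called higher there. Between guides at 0 h, 12 of the 20 nucleotide synthesis genes were higher and 3 lower, with a median of 0.59, against 34.2% and 29.1% of all genes. Ppat and Cad, which start purine and pyrimidine synthesis, were the lowest at -0.35 and -0.27. The 2 largest log2 changes between guides at 0 h were those of Rrm2, the regulated subunit of ribonucleotide reductase, at 2.36, and Tyms, the thymidylate synthase, at 1.96. Both fell with TCR, by 1.8 and 1.07 in sgFoxp3 cells, against the direction of most of their list.

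**Figure D5:**
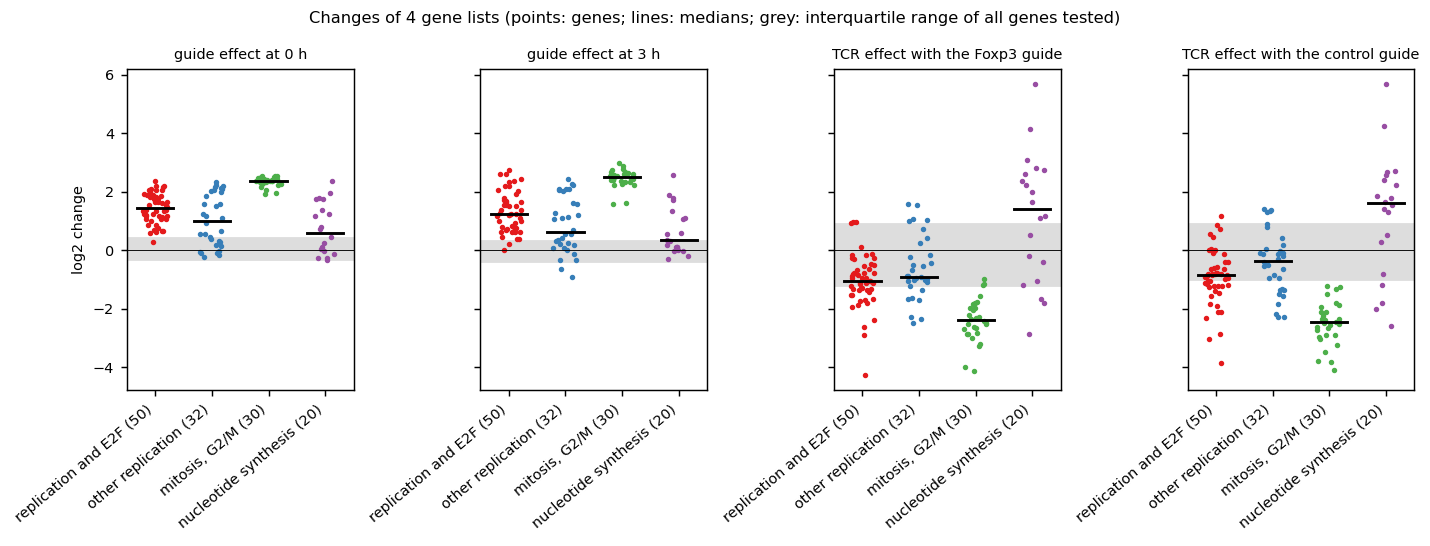
Log2 changes of the genes in 4 lists (points) with the median of each (black lines), for the guide effects, sgFoxp3 over sgNC, at 0 h and 3 h and for the TCR effects, 3 h over 0 h, with each guide. The grey band is the interquartile range of all genes tested, the replication and E2F genes have medians of 1.43, 1.24, -1.05 and -0.86 from left to right, and the mitotic genes have medians further from 0 in all 4 panels.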

How the data were processed

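RNA-seq of 8 libraries, 2 in each of 4 groups, gave expected counts and TPM per gene as the authors deposited them. The submitters' processing notes name Trim Galore 0.6.3, STAR 2.7.9a and RSEM 1.3.1 and the builds mm10 and GRCm38; the role and settings of each are not given in the sources used here, apart from file headers of RSEM expected counts. TPM, per the file headers, divide estimated abundance by transcript length and sum to a fixed total in each library, so a change in a few abundant genes moves all others.

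Expected counts were rounded to whole numbers. Genes with low counts were removed with filterByExpr of edgeR 4.0.16 (R 4.3.3), which left 16642 of 55665 genes. Libraries were scaled by TMM, 1 model with a coefficient for each group was fitted to all 8 libraries, and 5 contrasts were tested with the quasi-likelihood test, with Benjamini-Hochberg adjustment over all genes tested. The common biological coefficient of variation was 3.41%, with 4 residual degrees of freedom and a median of 19.1 prior ones. The steps were tested on simulated data with known changes in a small share of the genes. Far more genes were called in these data, so that test does not cover the scaling of the libraries here.

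The members, the other gene lists and the rule for named genes were chosen with earlier results of these data known. Values in every library are given for Foxp3, for the members with the largest and smallest guide effect at 0 h in each role group, for every E2F factor, for members not called between guides and for the 5 largest differences in TCR effect. Of the other lists, at most 2 members with the largest changes at 0 h and at most 2 against the majority are named, apart from a gene that is not reported here. Coordinates are those of GENCODE M21 on GRCm38, in which 51 of 51 identifiers were found. Promoter windows are those of RefSeq on GRCm38.p6. Alternatives were scaling by RLE or the upper quartile, a DESeq2 1.42.0 fit, voom of limma 3.58.1, limma-trend on log2(TPM + 1) and log2(TPM + 0.1), other filters, only the 4 libraries compared, an adjusted p of 0.01, a replicate block, thinned counts, a 2-fold minimum, each library left out in turn, and a 150-base promoter window.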

Additional observations from a re-analysis of the deposited data

Results flagged for a closer look

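For 30 of the 50 genes the change after 3 h of TCR differed between sgFoxp3 and sgNC cells in the interaction test of edgeR's quasi-likelihood fit, over all genes at an adjusted p below 0.05. Values are log2 differences, the TCR effect in sgFoxp3 cells minus that in sgNC cells.

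Among the clamp and its loader, Pcna had -0.72, Rfc1 -0.64, Rfc2 -0.56, Rfc3 -0.41 and Rfc4 -0.29. The polymerase and primase genes had -0.65 for Pole2, -0.54 for Prim2, -0.53 for Pold1, -0.42 for Prim1, -0.40 for Pola2 and -0.21 for Pold2. In the MCM ring, Mcm7 had -0.47, Mcm5 -0.32, Mcm2 -0.31 and Mcm3 -0.29, against 0.22 for Mcm4. Loading and activation genes had -0.43 for Gins2, -0.33 for Cdt1, -0.26 for Cdc7 and -0.23 for Gins4, against 0.44 for Cdc6 and 0.41 for Mcm10. The remaining values were -0.42 for E2f2, -0.34 for Tipin, -0.33 for Chaf1b and -0.26 for Fen1 below 0, and 0.42 for Clspn, 0.38 for E2f8, 0.37 for E2f7 and 0.28 for Chaf1a above it.

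Pcna was the only one of these 30 that was called in opposite directions with the 2 guides, lower in sgFoxp3 cells and higher in sgNC cells. Depth differed with the guide, at 55865290 to 94807362 counts in sgFoxp3 libraries and 38729009 to 48626432 in sgNC libraries. With all libraries thinned to the smallest total, 21 of the members were called lower and 6 higher.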

How the results depend on the processing

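The guide effects kept their direction and call for nearly all members: 50 at 0 h and 49 at 3 h were called higher under every count-based scaling, tool and filter run and without any 1 library. On log2(TPM + 1) or log2(TPM + 0.1) the counts were 49 and 48, since Mcm6 at 0 h lost its call and Rfc2 at 3 h turned to -0.0209 and -0.0213. The members' median at 0 h was 1.37 with RLE scaling and with DESeq2, 1.35 with upper-quartile scaling, 1.10 on log2(TPM + 1) with and without the filter, and 1.12 on log2(TPM + 0.1). At 3 h it was 0.96 on log2(TPM + 1), with or without the filter, and 1.04 on log2(TPM + 0.1). A 2-fold minimum left 31 higher at 3 h.

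The median TCR effect in sgFoxp3 cells was -0.997 with RLE, -1.22 with upper-quartile scaling, -1.22 on log2(TPM + 1) with or without the filter, -1.29 on log2(TPM + 0.1) and -1.13 with at least 1 CPM in every library, and a 2-fold minimum left 0 higher and 26 lower. In sgNC cells it was -1.10 with upper-quartile scaling, -1.13 on log2(TPM + 1) with or without the filter, -1.21 on log2(TPM + 0.1) and -0.95 with at least 1 CPM, 3 genes were higher on log2(TPM + 1) without the filter, and a 2-fold minimum left 1 higher and 20 lower. There Mcm2, Mcm3 and Orc6, not called and near 0, turned to -0.20, -0.22 and -0.23 with upper-quartile scaling, to -0.29, -0.39 and -0.37 on log2(TPM + 1) with or without the filter, and to -0.30, -0.40 and -0.39 on log2(TPM + 0.1).

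For the difference between guides, RLE and upper-quartile scaling each called 11 members higher and 19 lower. On log2(TPM + 1) 2 were higher and 14 lower, or 1 and 11 without the filter, and on log2(TPM + 0.1) 12 were lower. A 2-fold minimum left 0 higher and 0 lower. Pold2 turned to 0.0668, Chaf1a to -0.0378 and E2f8 to -0.0626 on log2(TPM + 1), with or without the filter, and Pold2 to 0.0656 on log2(TPM + 0.1). Over all genes the median moved from 0.02 to -0.15 at 0 h on log2(TPM + 1), and to -0.24 and -0.25 for the TCR effects in sgFoxp3 and sgNC cells with upper-quartile scaling. The cause was not tested.

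Without 1 library in turn, members called higher and lower numbered 3 to 4 and 44 to 46 for TCR in sgFoxp3 cells, 5 and 40 to 41 in sgNC cells, and 5 to 10 and 20 to 24 for the difference. Adding the replicate number as a replicate block gave 50, 49, 3 and 46, 5 and 40, and 7 and 23, as without it. Same-numbered libraries correlated at -0.102 to 0.109 in their deviations from the group mean, so no large effect shared by number was seen. With 2 libraries a group this cannot tell whether they share an animal or culture. Within 150 bases before the start, 8 members held E2F letters, 23 CCAAT and 6 the CHR letters.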

Other observations

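Genes of the histone clusters Hist1 and Hist2, chosen by symbol alone and known mainly as replication-dependent, were mostly higher in sgFoxp3 cells. The mRNAs of replication-dependent histones are made mainly in S phase. Of 66 listed genes of the clusters Hist1 and Hist2, 43 had enough counts to test, and 35 of them were called higher at 0 h and none lower, by edgeR's quasi-likelihood test, with a median log2 change of 1.92. At 3 h 33 were higher and 2 lower, with a median of 1.77. Over all genes tested, 34.2% were called higher and 29.1% lower at 0 h, and 30.7% higher and 30.8% lower at 3 h. The histone genes' summed level was 40.6 and 39.4 CPM at 3 h and 56.7 and 53.9 CPM at 0 h in sgFoxp3 libraries, against 13.1 and 14.4 CPM at 3 h and 27.95 and 30.04 CPM at 0 h in sgNC libraries. Each sgFoxp3 pair was above the sgNC pair of its time. For the TCR effect, 34 of the 43 were not called in sgFoxp3 cells and 34 were not called in sgNC cells. Many of these genes are near-identical copies, so their reads cannot be assigned with certainty, and a gene that passed the filter only through its higher group had to differ.

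Of the 18 regulators from the RB, E2F and DREAM families, 13 fell and 5 rose after 3 h of TCR in sgFoxp3 cells, with a median log2 change of -0.64, and 12 fell and 4 rose in sgNC cells, with a median of -0.99. Over all genes tested, 44.5% were called lower and 40.8% higher in sgFoxp3 cells, and 40.9% lower and 40.9% higher in sgNC cells. Rbl2 and Rb1, which encode pocket proteins that restrain E2F, had log2 changes of -4.13 and -2.97 in sgFoxp3 cells and -3.22 and -1.97 in sgNC cells. Tfdp2, a DNA-binding partner of E2F, had -3.93 in sgFoxp3 cells and -3.30 in sgNC cells. E2f5 and E2f4, which act with pocket proteins as repressors, had 1.69 and 1.32 in sgFoxp3 cells and 1.5 and 1.36 in sgNC cells. These 5 genes were chosen after their values were seen.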
